A study of Mus musculus with 6 samples.

Results

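Glycolysis and the pentose phosphate pathway were followed through 33 genes taken by name: glucose and lactate transporters, the enzymes of both pathways and a few of their regulators. Of these, 30 were listed under their own Ensembl gene ID, 28 of them in all 6 libraries, against 12235 genes with a level in the whole data set. Aldoa is counted among them through ENSMUSG00000114515, a neighbouring gene ID that carries the same name. RNA had been sequenced from DN3 thymocytes, early T cell precursors of the mouse thymus sorted as CD25+ and negative for CD4, CD8, CD44 and lineage markers. The mice were 5 weeks old and untreated, and were either WT or Hspa9 cKO, with 3 libraries in each group. Hspa9 encodes GRP75 (mortalin), an HSP70 chaperone of mitochondria, and the study asked about its role in early thymocyte development. The Cre driver and the Hspa9 allele are not stated in the sources used here. Nor is it stated whether each library came from its own animal, so the p-values reflect the spread among libraries alone, which may be technical.

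Glycolysis splits glucose into pyruvate in the cytosol. Hexokinase traps glucose in the cell, phosphofructokinase commits it to breakdown, and the later enzymes recover ATP. Lactate dehydrogenase turns pyruvate into lactate and returns NAD+, while pyruvate that enters mitochondria is oxidised. The pentose phosphate pathway branches off after hexokinase. Its oxidative arm makes NADPH and its non-oxidative arm makes ribose for nucleotides. Dividing thymocytes are known to depend on both, and DN3 cells that pass beta selection enter a burst of glucose use and division.

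Levels are summed FPKM (fragments per kilobase of transcript, scaled by library size) of the transcript start events of a gene. Changes are log2(FPKM + 1) differences, Hspa9 cKO minus WT, which understate the change of low genes, given with their standard error (SE). A gene was called when limma gave a Benjamini-Hochberg adjusted p under 0.05 over all 9198 genes tested. The tables hold no read counts, so depth is unknown. Total Hspa9 did not differ beyond its spread, at 105.4, 121.2 and 121.7 FPKM in the WT libraries (replicates 1 to 3) and 117.2, 123.5 and 109.7 FPKM in the Hspa9 cKO libraries (replicates 1 to 3) (limma, adjusted p = 0.951). Its transcript structure followed the labels: transcripts that include exons 2 to 4 stood at 105 to 109 FPKM in WT and at 16.8 to 25.2 FPKM in Hspa9 cKO. Transcripts that skip them stood at 68.9 to 89.4 FPKM in Hspa9 cKO, and were also listed in WT replicate 2 at 12.3 FPKM and WT replicate 3 at 17.0 FPKM. Markers of the DN3 stage were present: Il2ra (CD25) was at 145 to 158 FPKM in WT and 367 to 383 FPKM in Hspa9 cKO, and the summed level of 12 DN3 markers was 1133 to 1404 FPKM in WT and 1521 to 1696 FPKM in Hspa9 cKO. Of those markers, 6 were called higher and 1, Tcf7, lower, and Lck was listed in WT replicate 1 alone. Some markers of B cells (Cd79a, Pax5), of granulocytes (Mpo, Elane, S100a9) and of thymic epithelium (Foxn1, Psmb11) were not listed in any library. An unlisted gene can be a failed estimate, so this does not show that such cells were absent. Of the myeloid list, Lyz2 was at 8.74 to 14.3 FPKM in WT and 13.4 to 15.4 FPKM in Hspa9 cKO and was not called. Fcer1g, of the same list, was at 0.495 to 1.07 FPKM in WT and 0.263 to 0.971 FPKM in Hspa9 cKO.

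Of the 28 members tested, 8 fell and 1 rose in Hspa9 cKO, and 19 were not called. Over all genes tested, 5.61% were called lower, 8.4% higher and 14.0% in either direction. That balance depended on scaling: 516 genes were lower and 773 higher as deposited, and 692 were lower and 606 higher after rescaling by trimmed means of log ratios. The members that fell were Hk2, Pfkfb3, Tpi1, Pgk1, Pgam1, Ldha, G6pdx and Prps1, and the member that rose was Hk1. The members' median change was -0.15, and that of all genes tested was 0.06. All 3 Hspa9 cKO libraries lay below all 3 WT libraries for 9 members and above them for 2, where 15.7% and 23.2% of all genes did so, or 38.9% in either direction. When start events were placed instead by the annotated exon edge they fall on, Tkt, Pkm and Pgls, listed under the ID of a neighbouring gene, could be tested as well. That gave 9 lower, with Tkt as the addition, 1 higher and 21 not called among 31 members, beside 5.37% lower, 7.84% higher and 13.2% in either direction over 9511 genes. By exon edge the groups were apart in 12 members, 10 below and 2 above WT, beside 15.7% below, 22.9% above and 38.6% in either direction.

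**Figure D1:**
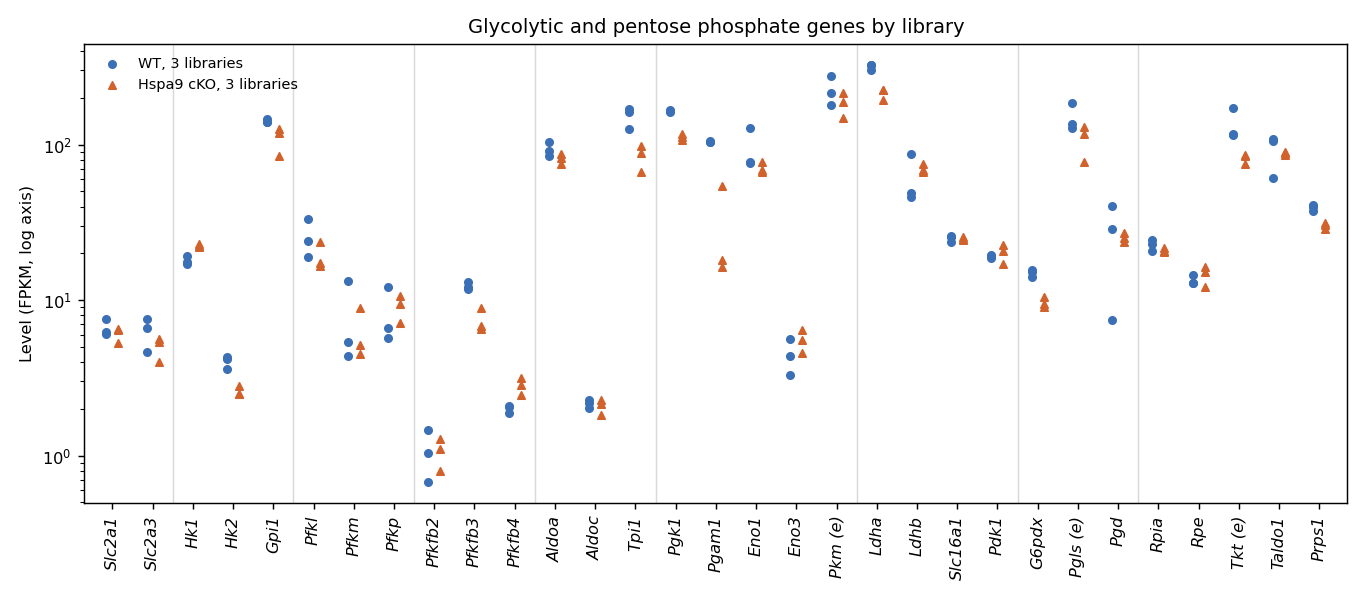
Level of each tested gene in every library (FPKM, logarithmic axis), circles for the 3 WT libraries and triangles for the 3 Hspa9 cKO libraries; grey lines separate steps of the pathways, and (e) marks genes placed by annotated exon edge. The Hspa9 cKO libraries lie wholly below WT for Hk2, Gpi1, Pfkfb3, Tpi1, Pgk1, Pgam1, Ldha, G6pdx, Tkt and Prps1, and wholly above for Hk1 and Pfkfb4.

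In WT, the mean levels of Ldha, Pkm, Pgk1, Tpi1, Pgls, Gpi1, Tkt and Pgam1 ran from 105 to 318 FPKM, while Pfkfb2, Pfkfb4 and Aldoc were at most 3.16 FPKM in any library. Summed over the 15 enzymes of the main glycolytic route that were listed under their own gene ID in all libraries, the level was 1203.3, 1165.4 and 1228.6 FPKM in replicates 1, 2 and 3 of WT. In Hspa9 cKO replicates 1, 2 and 3 the same sum was 873.5, 795.8 and 847.1 FPKM, below every WT library. These 15 include Hk2, Tpi1, Pgk1, Pgam1 and Ldha, each called lower, and Hk1, called higher. Start events of the whole data set also summed lower in every Hspa9 cKO library, at 248014 to 252474 FPKM against 256513 to 272918 FPKM in WT. With Pkm added from its exon-edge level, the 16 enzymes came to 1479.9, 1379.6 and 1407.5 FPKM in WT and 1021.4, 983.1 and 1061.2 FPKM in Hspa9 cKO, again without overlap. The 6 pentose phosphate members listed under their own gene ID in all libraries came to 185.3 to 235.6 FPKM in WT and 186.6 to 190.3 FPKM in Hspa9 cKO, and the groups overlapped. Once Tkt and Pgls were added from their exon-edge levels, the 8 members came to 453.8, 480.7 and 542.5 FPKM in WT and 381.9, 348.0 and 405.3 FPKM in Hspa9 cKO, so that the groups no longer overlapped. In bulk RNA, fewer cells of a type and less RNA per cell cannot be told apart.

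Cell division markers moved with these sums. All 10 proliferation markers examined were called lower (Mki67, Top2a, Plk1, Ube2c, Ccnb1, Cdk1, Pcna, Mcm3, Mcm5 and Rrm2), with a summed level of 916.6 to 946.8 FPKM in WT and 526.9 to 534.7 FPKM in Hspa9 cKO. Immediate early genes, which respond to stimulation and to cell handling, moved too: 4 of the 5 tested were called lower, with sums of 160.7 to 175.6 FPKM in WT and 69.44 to 81.6 FPKM in Hspa9 cKO, and Jun, Ier2 and Atf3 were not listed. Erythroid markers summed to 63.07 to 77.07 FPKM in WT and 38.27 to 46.06 FPKM in Hspa9 cKO, with 2 of 2 tested called lower and Hba-a1 and Slc4a1 among those not listed. Among markers of later thymocytes, Cd8b1 was called lower, at 5.81 to 6.36 FPKM in WT and 2.08 to 2.71 FPKM in Hspa9 cKO, Klf2 was called higher and S1pr1 was not listed. Sums were higher in Hspa9 cKO for the lists of B cells (1 of 1 tested, Cd79b), NK and innate lymphoid cells (Nkg7 higher, Id2 lower) and epithelium and stroma (Epcam higher, 1 of 2 tested). These ran from 9.755 to 12.56 against 15.31 to 18.45 FPKM, 43.91 to 46.12 against 64.33 to 67.75 FPKM and 48.03 to 51.88 against 62.54 to 69.58 FPKM in that order, while Ms4a1, Ncr1, Klrb1c, Krt5 and Krt8 were among those not listed. The dendritic cell list was higher too, at 153.5 to 165.6 FPKM in WT and 175.2 to 177.9 FPKM in Hspa9 cKO, with 0 of 3 tested genes called, most of it Bst2, and Siglech and Xcr1 not listed. The brain list was at 22.96 to 24.82 FPKM in WT and 25.18 to 27.57 FPKM in Hspa9 cKO, nearly all of it Mbp, which was not called. Their part in the results below was not tested.

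**Figure D2:**
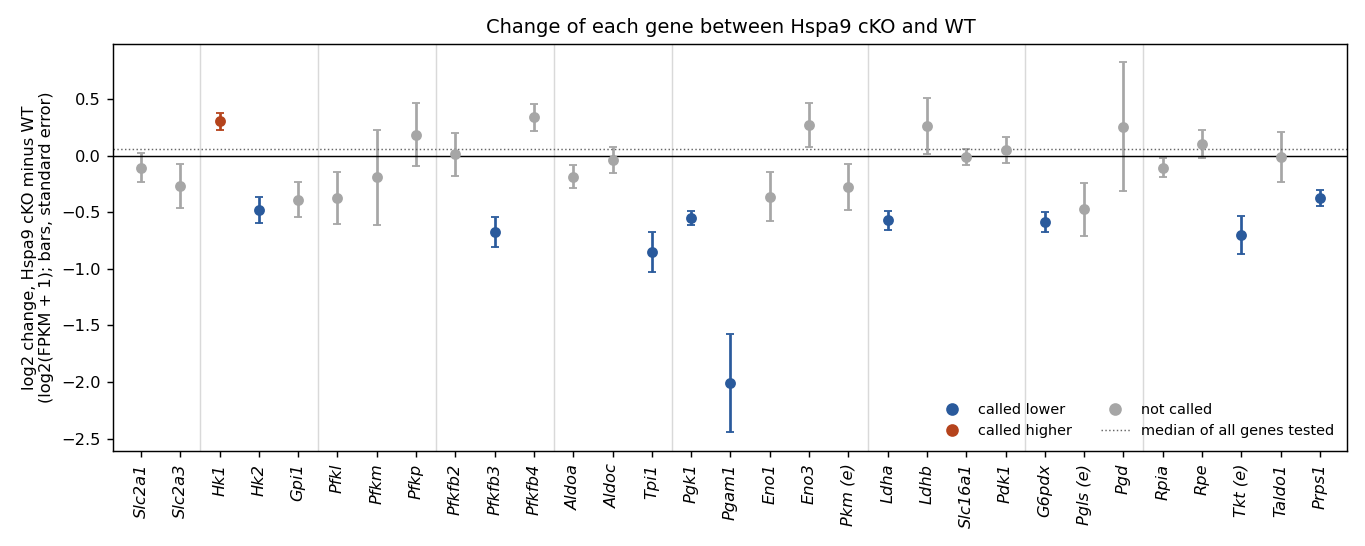
Change of each tested gene, Hspa9 cKO minus WT, as a log2(FPKM + 1) difference with its standard error; colour marks the limma call, and (e) marks genes placed by annotated exon edge. Pgam1 lies farthest from 0, at -2.01, Hk1 is the only called gene above 0, and the dotted line is the median of all genes tested, 0.06.

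Glucose enters lymphocytes mainly through GLUT1 (Slc2a1) and GLUT3 (Slc2a3), and neither transporter was called. Slc2a1 stood at 7.61, 6.21 and 6.04 FPKM in WT replicates 1 to 3, against 5.33, 6.39 and 6.50 FPKM in replicates 1 to 3 of Hspa9 cKO, a change of -0.11 (SE 0.13; limma, adjusted p = 0.616). Slc2a3 was at 4.65 to 7.53 FPKM in WT and 4.01 to 5.61 FPKM in Hspa9 cKO, a change of -0.27 (SE 0.19; limma, adjusted p = 0.395). By exon edge, which leaves out starts beyond the annotated gene, Slc2a3 was at 3.81 to 4.42 FPKM in WT. In Hspa9 cKO it was at 3.22 to 5.61 FPKM, a change of -0.04 (SE 0.20, limma, adjusted p = 0.906). For both transporters the libraries of the groups overlapped.

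The hexokinases, which share the first step, moved in opposite directions. Hk2, the inducible isoenzyme that is raised in activated and dividing cells, was at 4.32, 4.16 and 3.58 FPKM in the WT libraries (replicates 1 to 3) and 2.49, 2.80 and 2.49 FPKM in the Hspa9 cKO libraries (replicates 1 to 3). It fell by 0.48 (SE 0.11; limma, adjusted p = 0.0403). Hk1, the isoenzyme expressed in most tissues, was at 17.5, 19.1 and 17.2 FPKM in WT and at 22.1, 22.2 and 22.8 FPKM in Hspa9 cKO. All Hspa9 cKO libraries were below WT for Hk2 and above WT for Hk1. Hk1 rose by 0.30 (SE 0.07; limma, adjusted p = 0.0469), a call that was lost when libraries were rescaled by trimmed means of log ratios (0.24) or median ratios (0.25), with plain empirical Bayes, with length and GC trends removed (0.21) and when any 1 library was left out; its adjusted p over all alternatives ran from 0.0386 to 0.132. The Hk2 call was also lost without any 1 library, with adjusted p up to 0.117.

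Hk1 has alternative starts, and both listed above 1 FPKM were higher in Hspa9 cKO. The main start was at 15.2 to 16.8 FPKM in WT and 18.8 to 18.9 FPKM in Hspa9 cKO, and a minor start at 1.83 to 2.34 FPKM in WT and 3.26 to 3.90 FPKM in Hspa9 cKO. The ratio of Hk1 to Hk2 was 4.06, 4.59 and 4.80 in WT replicates 1, 2 and 3 and 8.86, 7.91 and 9.16 in Hspa9 cKO replicates 1, 2 and 3. Hexokinase transcripts thus came to a larger part from Hk1 in every Hspa9 cKO library. The difference of the log2 ratios was 0.78 (exact two-sided permutation test, p = 0.1, adjusted over 6 isoenzyme pairs 0.2), and 0.1 is the smallest p that 3 against 3 libraries allow. Gpi1, glucose-6-phosphate isomerase, which stands at the branch between both pathways, was at 139, 141 and 146 FPKM in WT and 84.9, 125 and 119 FPKM in Hspa9 cKO. Its groups did not overlap, but the change of -0.39 (SE 0.15) was not called (limma, adjusted p = 0.145).

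None of the phosphofructokinase genes, which encode subunits of the committing enzyme, was called. Pfkl, the liver-type subunit, was the most abundant, at 24.1, 18.9 and 33.2 FPKM in WT replicates 1 to 3, against 17.4, 16.5 and 23.6 FPKM in replicates 1 to 3 of Hspa9 cKO (change -0.37, SE 0.23; limma, adjusted p = 0.320). Pfkm, the muscle-type subunit, was at 4.37 to 13.4 FPKM in WT and 4.48 to 8.94 FPKM in Hspa9 cKO. Its high WT value came from replicate 1, where a start at 9.49 FPKM was listed that no other library lists. Sums of Pfkm end events varied less, at 9.49 to 12.5 FPKM in WT and 8.50 to 12.3 FPKM in Hspa9 cKO, with WT replicate 1 the lowest of WT. Pfkp, the platelet-type subunit, was at 5.74 to 12.1 FPKM in WT and 7.17 to 10.7 FPKM in Hspa9 cKO, with a change of 0.19 from start events and -0.35 from end events, so its direction was not settled.

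Of the enzymes that set fructose-2,6-bisphosphate, the strongest activator of phosphofructokinase, Pfkfb3 fell. Its product mainly makes the activator. Pfkfb3 was at 12.1, 13.1 and 11.7 FPKM in the WT libraries (replicates 1 to 3) and 6.55, 6.77 and 8.92 FPKM in the Hspa9 cKO libraries (replicates 1 to 3). Every Hspa9 cKO library lay below every WT library, and the gene fell by 0.67 (SE 0.13; limma, adjusted p = 0.0237); leaving out any 1 library other than Hspa9 cKO replicate 3 took the adjusted p above 0.05, to at most 0.0778. Pfkfb4, an isoenzyme with the same pair of activities, was at 1.88, 2.06 and 2.09 FPKM in WT and 2.46, 3.16 and 2.83 FPKM in Hspa9 cKO, with groups apart but no call (change 0.34, SE 0.12; limma, adjusted p = 0.114). Pfkfb2, the isoenzyme known from heart, was near 1 FPKM in both groups (change 0.01, SE 0.19).

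Tpi1 fell, while the aldolases were not called. Triose-phosphate isomerase, the Tpi1 product, lets both triose products of the split sugar go on through glycolysis. Tpi1 (ENSMUSG00000023456; mm10, chr6:124810586-124814296, minus strand) was at 169, 163 and 126 FPKM in WT replicates 1 to 3, against 97.5, 66.9 and 88.8 FPKM in replicates 1 to 3 of Hspa9 cKO. The highest Hspa9 cKO library was below the lowest WT library, and the fall was 0.85 (SE 0.18; limma, adjusted p = 0.0298); without any 1 library other than WT replicate 3 the call was lost, with adjusted p up to 0.0883. Aldoa, the aldolase that splits fructose-1,6-bisphosphate in most tissues, was at 84.5 to 104 FPKM in WT and 75.1 to 87.1 FPKM in Hspa9 cKO (change -0.19, SE 0.10; limma, adjusted p = 0.270). Its events were listed under ENSMUSG00000114515, a neighbouring ID of the same name, and none under ENSMUSG00000030695, which spans the main start. By exon edge the Aldoa change was also -0.19 (SE 0.10, limma, adjusted p = 0.270). Aldoc, the brain-type aldolase, was at 2.03 to 2.26 FPKM in WT and 1.83 to 2.27 FPKM in Hspa9 cKO (change -0.04).

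In lower glycolysis, where ATP is recovered, Pgam1 and Pgk1 fell. Pgam1, phosphoglycerate mutase (ENSMUSG00000011752; chr19:41911923-41918660, plus strand), was at 104, 104 and 106 FPKM in replicates 1, 2 and 3 of WT. The Hspa9 cKO replicates 1, 2 and 3 held 53.9, 16.3 and 18.0 FPKM. The WT libraries were within 1.03-fold of each other, the Hspa9 cKO libraries spread over 3.31-fold, and replicate 1 lay between the other Hspa9 cKO libraries and WT. The mean fell by 71.9% and the log2 level by 2.01 (SE 0.43; limma, adjusted p = 0.0327). Sums of end events gave almost the same levels, 103 to 106 FPKM in WT and 53.3, 16.1 and 17.8 FPKM in Hspa9 cKO. The call was lost without the filter on low levels and without any 1 library other than Hspa9 cKO replicate 1, with adjusted p up to 0.0982, and the change over all alternatives ran from -2.54 to -1.71. Pgam1 has 1 annotated pseudogene at 95% identity or more over at least 500 bases, so reads could be divided between the copies.

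Pgk1, phosphoglycerate kinase, an ATP-yielding step (ENSMUSG00000062070; chrX:106187100-106203699, plus strand), was at 161, 166 and 165 FPKM in the WT libraries (replicates 1 to 3) and 117, 107 and 111 FPKM in the Hspa9 cKO libraries (replicates 1 to 3). The libraries were tight within each group and the groups lay far apart. Pgk1 fell by 0.55 (SE 0.06; limma, adjusted p = 0.00559), the smallest adjusted p among the members, and stayed called when any 1 library was left out. Gapdh, the enzyme between triose phosphate and Pgk1, could not be measured: only WT replicate 3 listed it, at 0.137 FPKM, and 70 annotated pseudogenes and 2 further protein-coding genes match it at 95% identity or more. An abundant gene that is not listed, and so set to 0, can be a failed estimate, so the absence of a member says nothing of its expression.

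Enolase makes phosphoenolpyruvate, and neither of its genes was called. Eno1, the form of most tissues, was at 76.4, 76.9 and 129 FPKM in replicates 1, 2 and 3 of WT and 77.6, 66.6 and 68.3 FPKM in Hspa9 cKO (change -0.36, SE 0.21; limma, adjusted p = 0.302). WT replicate 3 alone was high. Eno3, the muscle form, was at 3.31 to 5.61 FPKM in WT and 4.57 to 6.38 FPKM in Hspa9 cKO, with a change of 0.27 by gene ID and -0.06 by exon edge. Muscle markers were almost absent, with a summed level of 0.9911 to 4.023 FPKM in WT and 0.9285 to 2.927 FPKM in Hspa9 cKO, most of it Mylpf, and Myh1, Myh4, Acta1 and Des were not listed.

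Pkm, pyruvate kinase, the last ATP-yielding step, was listed under the ID of Gm49759, and its level comes from the exon-edge assignment. It was at 277, 214 and 179 FPKM in WT replicates 1 to 3, against 148, 187 and 214 FPKM in replicates 1 to 3 of Hspa9 cKO. The groups overlapped, and the change of -0.28 (SE 0.20) was not called (limma, adjusted p = 0.402). The gene makes enzyme forms M1 and M2 by joining 1 of 2 exons of equal length, each the ninth of 11 in its transcript. M2, the form of most dividing cells, is open to regulation, and M1 is the form of muscle and brain. The exons are shown because the balance of these forms is read from them. Each has 167 bases, the sequences share 61.7% of positions, and capitals mark the 64 bases at which they differ (GENCODE M21 transcripts Pkm-202 and Pkm-201, mm10, plus strand, M1 at chr9:59675029-59675195 and M2 at chr9:59675568-59675734).
Pkm M1 exon: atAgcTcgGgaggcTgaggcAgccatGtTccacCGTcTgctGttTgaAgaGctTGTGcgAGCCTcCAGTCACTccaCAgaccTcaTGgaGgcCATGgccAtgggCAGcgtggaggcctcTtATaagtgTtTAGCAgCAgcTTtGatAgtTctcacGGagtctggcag
Pkm M2 exon: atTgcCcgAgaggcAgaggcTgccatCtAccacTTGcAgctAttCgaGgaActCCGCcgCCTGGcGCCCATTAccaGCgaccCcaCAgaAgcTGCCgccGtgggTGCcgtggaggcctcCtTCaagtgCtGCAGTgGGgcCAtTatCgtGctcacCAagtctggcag

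Of the 3 events of these exons, M2 had the highest level in every library. The event that joins the M2 exon and skips the M1 exon was at 188, 171 and 171 FPKM in the WT libraries (replicates 1 to 3) and 119, 168 and 144 FPKM in the Hspa9 cKO libraries (replicates 1 to 3). The event that joins the M1 exon was at 56.7, 17.8 and 0.0063 FPKM in WT and 7.52, 3.46 and 36.9 FPKM in Hspa9 cKO. The M1 event varied widely within each group, and the groups overlapped. The M2 event was lower in each Hspa9 cKO library than in any WT library, by a narrow margin (168.4 FPKM in Hspa9 cKO replicate 2 against 170.9 FPKM in WT replicate 3), and this was not tested. Of the sum of both events, M2 made up 89.2% ± 11.7 (SD, n = 3) in the WT libraries. The share in the Hspa9 cKO libraries was 90.6% ± 9.65 (SD, n = 3). Only WT replicate 3 listed an event that joins both exons, at 168 FPKM. Of all 3 events, M2 made up 72.6% ± 20.4 (SD, n = 3) in the WT libraries, where WT replicate 3 was at 50.5%, while the Hspa9 cKO share stayed at 90.6%. The M2 share was not tested.

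Ldha, the lactate dehydrogenase subunit that favours lactate formation (ENSMUSG00000063229; chr7:46841475-46855627, plus strand), was the most abundant member and fell. It was at 302, 326 and 326 FPKM in WT replicates 1 to 3, against 224, 193 and 226 FPKM in replicates 1 to 3 of Hspa9 cKO. Every Hspa9 cKO library was well below every WT library, and the fall was 0.57 (SE 0.09; limma, adjusted p = 0.0115), called also without any 1 library. Its end events are almost not estimated, and with end events in place of starts the call was lost (adjusted p = 0.853). Ldhb, the subunit that favours pyruvate formation, was at 87.6, 45.7 and 48.7 FPKM in WT and 74.8, 66.3 and 68.3 FPKM in Hspa9 cKO. WT replicate 1 was high and the other WT libraries lay below all Hspa9 cKO libraries; the change of 0.26 (SE 0.25; limma, adjusted p = 0.519) became 0.55 and was called without WT replicate 1 (adjusted p = 0.0343).

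The ratio of Ldha to Ldhb was 3.45, 7.12 and 6.70 in the WT libraries, and 3.0, 2.90 and 3.30 in those of Hspa9 cKO, replicates 1 to 3 each. All Hspa9 cKO ratios were below those of WT, with WT replicate 1 close to them. The difference of the log2 ratios was -0.83 (exact two-sided permutation test, p = 0.1, adjusted 0.2). Among the other pairs, the log2 ratio of Pfkp to Pfkl differed by 0.56 (exact p = 0.1, adjusted 0.2) from start events and by -0.67 from end events. Differences were -0.63 for Eno1 to Eno3 (exact p = 0.3, adjusted 0.45), -0.15 for Aldoa to Aldoc (exact p = 0.4, adjusted 0.48) and 0.16 for Slc2a1 to Slc2a3 (exact p = 0.5, adjusted 0.5). At 3 against 3 libraries none of the 6 pairs could pass the threshold.

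**Figure D3:**
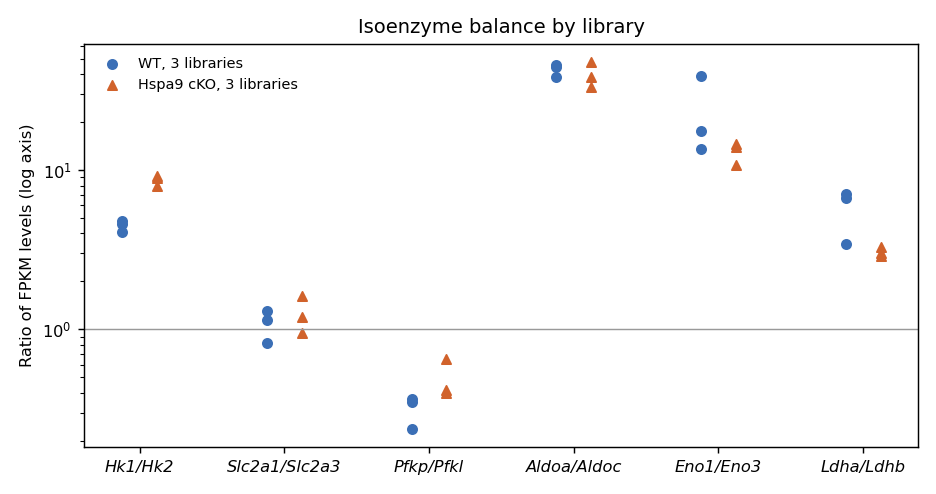
Ratio of the FPKM levels of isoenzyme pairs in each library (logarithmic axis), circles for the 3 WT libraries and triangles for the 3 Hspa9 cKO libraries. The Hk1 to Hk2 ratio is 4.06 to 4.80 in WT and 7.91 to 9.16 in Hspa9 cKO, and the Ldha to Ldhb ratio is 3.45 to 7.12 in WT and 2.90 to 3.30 in Hspa9 cKO.

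Transcript structure was examined through 22 tested splicing ratios in 13 members, and 1 was called, in Ldha. Over all ratios of the data set 20 of 9730 (0.206%) were called. Ratios of Pgls, whose events are listed under the ID of a neighbouring gene, were not counted among those of the members. The ratio concerns exon 6 of Ldha, shown here because its skipping was listed in WT libraries alone. It has 118 bases, which is no multiple of 3, so that skipping shifts the reading frame (GENCODE M21 transcript Ldha-202, mm10, chr7:46851877-46851994, plus strand, exon 6 of 8; capitals are not used).
Ldha exon 6: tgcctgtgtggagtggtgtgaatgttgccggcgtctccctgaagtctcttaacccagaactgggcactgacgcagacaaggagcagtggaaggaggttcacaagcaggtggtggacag

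The event that skips this exon was at 43.2, 99.8 and 57.9 FPKM in replicates 1, 2 and 3 of WT and was not listed in any Hspa9 cKO library. The event that includes it was at 256, 210 and 266 FPKM in WT and 223, 191 and 225 FPKM in Hspa9 cKO. Inclusion was thus 85.5%, 67.7% and 82.1% in the WT libraries and 100% of the listed total in each Hspa9 cKO library. The log2 ratio of inclusion to skipping, each with 1 FPKM added, was higher by 5.81 in Hspa9 cKO (SE 0.43; limma, adjusted p = 0.0229). A ratio against unlisted events depends on the added value (9.11 with 0.1 FPKM) and is no measured fold. Leaving out any 1 library other than WT replicate 2 took the adjusted p above 0.05, to at most 0.112. The annotation holds 1 transcript that joins the exons flanking exon 6 directly, Ldha-209.

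Ldha starts differed as well, as a description. The upstream start was at 49.1, 116 and 59.7 FPKM in replicates 1, 2 and 3 of WT, close to the skipping event in the same libraries, and at 77.1, 191 and 77.9 FPKM in replicates 1, 2 and 3 of Hspa9 cKO, where no skipping was listed. The downstream start was at 253, 210 and 266 FPKM in WT, at 146 FPKM in Hspa9 cKO replicate 1, at 147 FPKM in replicate 3, and not listed in Hspa9 cKO replicate 2. As listed, the lower level of total Ldha in Hspa9 cKO lay in the downstream start, and the split between starts was not tested. Such events are estimates of how reads divide among isoforms, and WT replicate 2 and Hspa9 cKO replicate 2 held the highest upstream values of their groups.

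**Figure D4:**
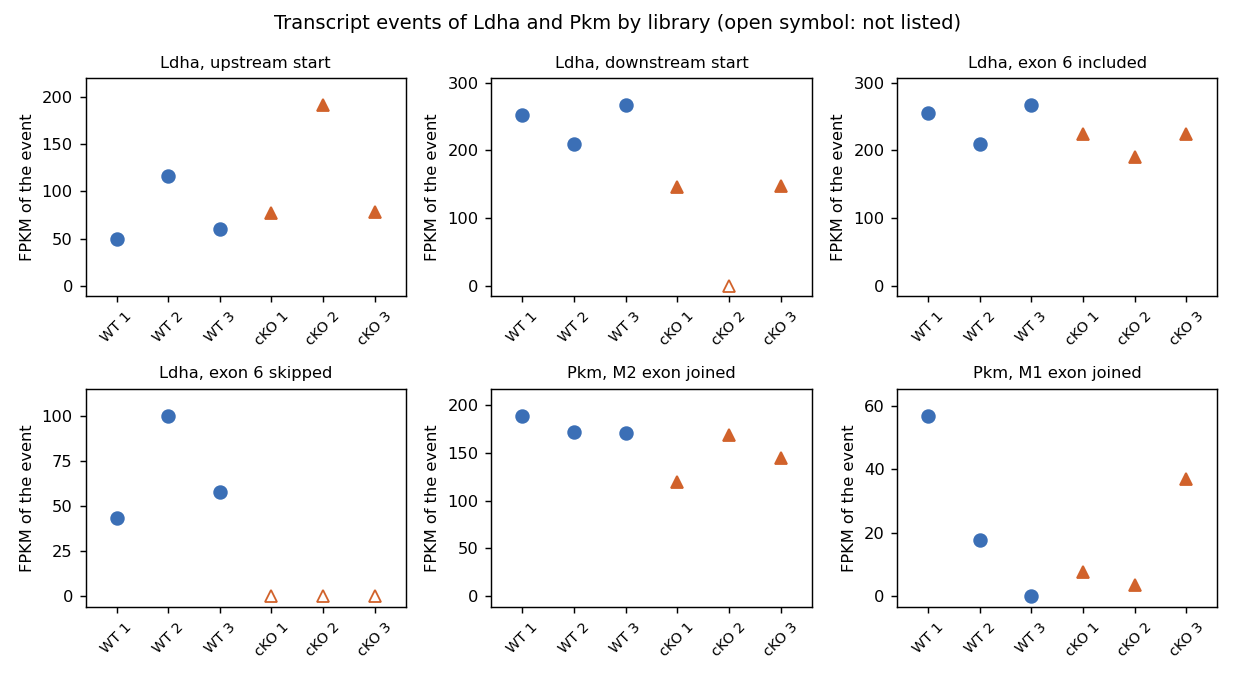
FPKM of transcript events of Ldha and Pkm in each library (linear axes that start below 0 to show points at 0), circles for WT and triangles for Hspa9 cKO, with open symbols where a table does not list the event. Skipping of Ldha exon 6 is listed in WT alone, at 43.2 to 99.8 FPKM, while the M1 event of Pkm overlaps between the groups and the M2 event is below WT in each Hspa9 cKO library by a narrow margin.

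The remaining genes around pyruvate and lactate were not called or could not be tested. Slc16a1, the monocarboxylate transporter MCT1, was at 23.7 to 25.8 FPKM in WT and 24.3 to 25.3 FPKM in Hspa9 cKO (change -0.01, SE 0.07; limma, adjusted p = 0.912). Slc16a3, the lactate exporter MCT4, had a value in Hspa9 cKO replicate 3 only, 0.368 FPKM. Pdk1, a kinase that holds back pyruvate dehydrogenase, was at 18.7 to 19.6 FPKM in WT and 16.96 to 22.6 FPKM in Hspa9 cKO (change 0.05, SE 0.11; limma, adjusted p = 0.804), and the sign of its change turned under 4 alternatives. The groups overlapped for both Slc16a1 and Pdk1.

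In the oxidative arm of the pentose phosphate pathway, G6pdx fell. It encodes glucose-6-phosphate dehydrogenase, the first and rate-limiting step and a main source of NADPH (ENSMUSG00000031400; chrX:74409483-74429194, minus strand). G6pdx was at 15.3, 14.1 and 15.5 FPKM in the WT libraries (replicates 1 to 3) and 10.4, 9.09 and 9.38 FPKM in the Hspa9 cKO libraries (replicates 1 to 3). The groups were well apart, and the fall of 0.59 (SE 0.09; limma, adjusted p = 0.0120) was called also without any 1 library. Pgls, the lactonase of the next step, came from the exon-edge assignment and was at 136, 127 and 185 FPKM in WT and 118, 77.3 and 130 FPKM in Hspa9 cKO (change -0.47, SE 0.23; limma, adjusted p = 0.230). Pgd, the enzyme that releases CO2 and makes more NADPH, was at 7.48, 40.3 and 28.9 FPKM in WT and 25.0, 26.9 and 23.6 FPKM in Hspa9 cKO. The WT libraries spanned 5.39-fold, and the change was 0.26 with WT replicate 1 and -0.43 without it, uncalled either way.

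In the non-oxidative arm, which interconverts sugars, and the step that follows it, Tkt and Prps1 fell. Tkt, transketolase, listed under the ID of Mir3076, was at 116, 118 and 173 FPKM in WT replicates 1 to 3, against 75.5, 84.1 and 85.2 FPKM in replicates 1 to 3 of Hspa9 cKO by exon edge. The Hspa9 cKO libraries were all lower, by 0.70 (SE 0.17; limma, adjusted p = 0.0450), and the call was lost without the filter on low levels, with plain empirical Bayes and without any 1 library other than WT replicate 3, with adjusted p up to 0.124. Its starts did not move alike: an internal start was at 14.1, 14.7 and 23.4 FPKM in WT and 2.01, 2.70 and 3.14 FPKM in Hspa9 cKO, while the main start was at 94.3 to 139 FPKM in WT and at 71.8 to 80.6 FPKM in Hspa9 cKO. The internal start made up 12.2% to 13.5% of the gene's start signal in WT and 2.67% to 3.68% in Hspa9 cKO. That difference was not tested.

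Prps1 makes PRPP, the activated ribose used for purine and pyrimidine synthesis. It was at 39.7, 37.3 and 40.7 FPKM in the WT libraries (replicates 1 to 3) and 28.8, 31.2 and 30.2 FPKM in the Hspa9 cKO libraries (replicates 1 to 3), all below WT. Prps1 fell by 0.37 (SE 0.07; limma, adjusted p = 0.0245), a call lost without any 1 library other than WT replicate 2, with adjusted p up to 0.0797. Prps2, an isoenzyme of this step outside the members, was at 45.6 to 50.6 FPKM in WT and 44.7 to 54.2 FPKM in Hspa9 cKO. It was not called (change 0.04, SE 0.10, limma, adjusted p = 0.833), and was named after its values were seen. Taldo1, transaldolase, was at 106, 108 and 61.2 FPKM in WT and 88.3, 85.4 and 90.3 FPKM in Hspa9 cKO (change -0.01, SE 0.22; limma, adjusted p = 0.973), with WT replicate 3 alone low. Rpia and Rpe, the ribose-5-phosphate isomerase and the ribulose-5-phosphate epimerase, had changes of -0.11 and 0.10 and were not called.

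Spread within groups differed between members. In WT, 10 of the 28 members listed in all libraries had a highest library over 1.5-fold above the lowest, against 3 of 28 in Hspa9 cKO. Pgd, Pfkm, Pfkfb2 and Pfkp spread most in WT, by 2.11-fold to 5.39-fold, and none of them was called. Pgam1 spread most in Hspa9 cKO. Near-identical copies exist for few members: 25 of 33 have no annotated pseudogene at 95% identity over 500 bases, and among the called members those with such copies are Pgk1, Ldha and Pgam1.

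The neighbouring genes of the pathways were taken as 5 lists with 96 genes, of which 69 could be tested. Of these, 2 fell, 7 rose and 60 were not called, beside 5.61% and 8.4% of all genes, and their median change was 0.04. Among other glycolysis isoforms and side enzymes 2 of 15 fell and 1 rose, and among other pentose phosphate genes 1 of 7 rose. Of the genes for pyruvate entry into mitochondria 1 of 10 rose, of the regulators of glycolysis 2 of 25 and of HIF targets outside glycolysis 2 of 12. The lists were chosen with earlier results of these data known.

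Fbp1, fructose-1,6-bisphosphatase, which runs the phosphofructokinase step backwards, rose most. It was at 1.89, 1.77 and 1.97 FPKM in WT replicates 1 to 3, against 7.82, 8.05 and 8.25 FPKM in replicates 1 to 3 of Hspa9 cKO, a rise of 1.65 (SE 0.09; limma, adjusted p = 0.000975). Bsg, basigin, the partner that brings MCT1 and MCT4 to the membrane, was at 139, 127 and 94.0 FPKM in WT and 74.3, 76.8 and 70.5 FPKM in Hspa9 cKO and fell by 0.67 (SE 0.15; limma, adjusted p = 0.0355). Pgp, a phosphatase that clears by-products of glycolysis, was at 7.24 to 7.95 FPKM in WT and 5.24 to 5.94 FPKM in Hspa9 cKO and fell by 0.42 (SE 0.10; limma, adjusted p = 0.0361). In each of these genes the groups lay apart, but the calls of Bsg and Pgp were lost without most single libraries, with adjusted p up to 0.108 and 0.104; only leaving out WT replicate 3 kept that of Bsg. Shpk, sedoheptulokinase, which feeds a sugar into the non-oxidative arm, was at 0.617 to 1.18 FPKM in WT and 1.83 to 2.19 FPKM in Hspa9 cKO (0.67, SE 0.16; limma, adjusted p = 0.0407); that call was lost without any 1 library, with adjusted p up to 0.118.

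Mpc1, a subunit of the mitochondrial pyruvate carrier, was at 4.32, 7.73 and 6.58 FPKM in the WT libraries (replicates 1 to 3) and 14.9, 13.8 and 15.9 FPKM in the Hspa9 cKO libraries (replicates 1 to 3). It rose by 1.17 (SE 0.19; limma, adjusted p = 0.0153), all Hspa9 cKO libraries lying above WT; without Hspa9 cKO replicate 1 or 3 the adjusted p was 0.0554 and 0.0598. Its partner Mpc2 was at 18.6 to 19.7 FPKM in WT and 18.2 to 20.9 FPKM in Hspa9 cKO and was not called (0.01, SE 0.08; limma, adjusted p = 0.942). Mpc2 was named after its values were seen.

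Txnip and Arrdc4, arrestin-like proteins that hold back glucose uptake and whose genes are known targets of the glucose sensor MondoA, both rose. Txnip was at 31.6, 29.1 and 31.7 FPKM in WT replicates 1 to 3, against 53.8, 49.1 and 52.0 FPKM in replicates 1 to 3 of Hspa9 cKO, a rise of 0.73 (SE 0.08; limma, adjusted p = 0.00435). Arrdc4 was at 0.840, 1.19 and 0.929 FPKM in WT and 3.03, 2.69 and 2.33 FPKM in Hspa9 cKO, a rise of 0.89 (SE 0.14; limma, adjusted p = 0.0128). Both groups of libraries were apart for each gene, and Txnip, like Fbp1, stayed called under every alternative tried, while Arrdc4 had adjusted p of 0.0505 and 0.0503 without Hspa9 cKO replicates 1 and 2. Vegfa and Bnip3l, HIF targets outside glycolysis, rose by 0.87 (SE 0.18) and 0.38 (SE 0.08; limma, adjusted p = 0.0303 for each), with Vegfa at 6.13 to 10.6 FPKM in WT and 14.5 to 16.2 FPKM in Hspa9 cKO. Bnip3l was at 14.9 to 15.6 FPKM in WT and 19.0 to 21.7 FPKM in Hspa9 cKO; its call was lost without any 1 library (adjusted p up to 0.0859), and that of Vegfa with end events and without any 1 library other than WT replicates 1 and 3 (up to 0.0939 without a library).

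Myc, a broad activator of glycolytic genes, was at 78.2, 102 and 99.98 FPKM in the WT libraries (replicates 1 to 3) and 112, 125 and 124 FPKM in the Hspa9 cKO libraries (replicates 1 to 3), above WT in each library but not called (0.37, SE 0.12; limma, adjusted p = 0.0991). Hif1a, the hypoxia-inducible activator of many of the members, could be tested only by exon edge, at 13.2, 16.6 and 14.8 FPKM in WT and 9.33, 8.61 and 10.4 FPKM in Hspa9 cKO. There it fell by 0.60 (SE 0.12; limma, adjusted p = 0.0263). Myc and Hif1a were named after their values were seen.

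**Figure D5:**
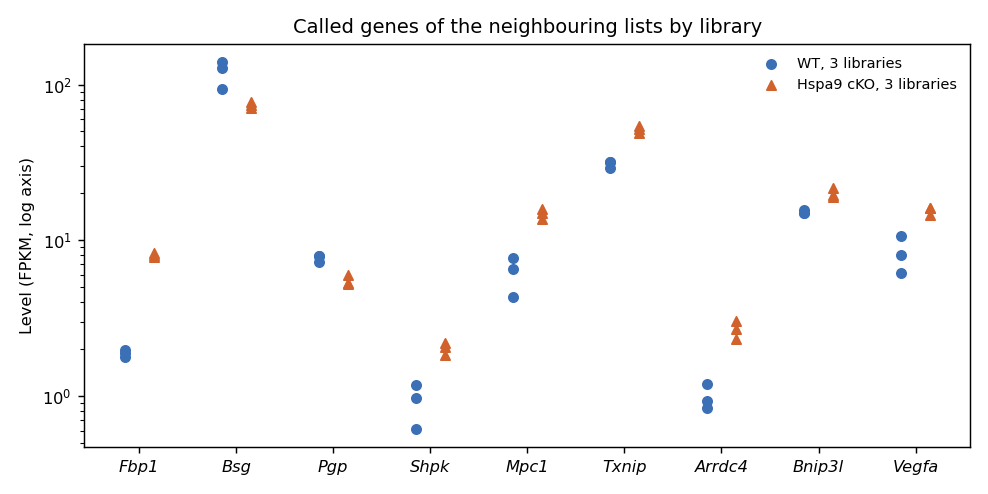
Level of the 9 called genes of the neighbouring lists in each library (FPKM, logarithmic axis), circles for WT and triangles for Hspa9 cKO. Bsg and Pgp lie lower in Hspa9 cKO, and Fbp1, Shpk, Mpc1, Txnip, Arrdc4, Bnip3l and Vegfa higher, without overlap of the groups.

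Promoter sequences of 32 of the 33 members, all but Slc2a3, were found in RefSeq (GRCm38.p6), from 250 bases before to 50 bases after the start, and searched on both strands for ACGTG, the core of the hypoxia response element, CACGTG, the E box bound by Myc and by MondoA partners, and TGATGCAA, an element bound by ATF4 with its partners. CACGTG contains ACGTG, so their matches overlap. ACGTG was held by 16 of 32 members and by 21.8% of all genes with a window, CACGTG by 5 of 32 and 8.1%, and TGATGCAA by 0 of 32 and 1.0%. Among the 9 members called lower, 6 held ACGTG (Hk2, Pfkfb3, Pgk1, Pgam1, Ldha and G6pdx) and 2 held CACGTG (Pfkfb3 and Ldha); Hk1, which rose, held ACGTG too. A match is a string of letters, not a bound site, and no match says only that these letters are not in the window. The Ldha CACGTG matches lie before the upstream start, at 49.1 to 116 FPKM in WT and 77.1 to 191 FPKM in Hspa9 cKO. The Ldha split between starts is an estimate, with the downstream start not listed in Hspa9 cKO replicate 2, and it was not tested. The Pfkfb3 CACGTG match lies before a minor start, at 1.51 to 5.05 FPKM in WT and 0.906 to 1.31 FPKM in Hspa9 cKO. The main Pfkfb3 start was at 7.97 to 10.6 FPKM in WT and 5.23 to 8.01 FPKM in Hspa9 cKO. An ACGTG match of Pfkfb3 lies within the span of that start event, at chr2:11553975-11553999 (minus strand), 60 bases before a RefSeq start. Windows around matches of members that fell are shown so that their context can be read, 5′ to 3′ on the strand of the gene, with the match in capitals: Ldha at chr7:46845649-46845674 and chr7:46845746-46845771 (plus strand), Pfkfb3 at chr2:11502128-11502153 (minus strand), Pgam1 at chr19:41911747-41911771 (plus strand), Pgk1 at chrX:106186940-106186964 (plus strand) and Hk2 at chr6:82774492-82774516 (minus strand).
Ldha, 145 bases before the start: tgtcgcagcaCACGTGgagccactct
Ldha, 48 bases before the start: gcccagcctaCACGTGggttcccgca
Pfkfb3, 53 bases before the start: cccttctctcCACGTGaaagggggct
Pgam1, 114 bases before the start: ctccttgcttACGTGcgctccgtga
Pgk1, 150 bases before the start: gtcgtgcaggACGTGacaaatggaa
Hk2, 52 bases before the start: tgagcacatcCACGTcactgtccgg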

How the data were processed

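RNA sequencing of DN3 thymocytes gave 1 table per library, 3 WT and 3 Hspa9 cKO, grouped by the sample titles. The submitters' processing notes name cutadapt 1.9.1 and build mm10. No source used here gives the aligner, the assembler, the caller of events or their annotation, and the labels' protocols name both poly(A) selection and ribosomal RNA removal. The deposited values are FPKM, per the file headers, with 1 value for each transcript event (starts, ends, skipped exons, retained introns and others), an estimate that rests on the way reads were split between isoforms. Unlisted events were set to 0, and repeated events were counted once.

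Start events were summed by Ensembl ID to give gene levels, or end events where no start was listed; Pkm, Tkt and Pgls came from starts matched to GENCODE M21 exon edges. Assembled loci can join neighbouring genes. Genes that reached 1 FPKM in at least 3 libraries were tested with limma 3.58.1 (R 4.3.3; trended, robust empirical Bayes, two-sided) on log2(FPKM + 1), with Benjamini-Hochberg adjustment over all genes. Splicing was tested on log2 ratios of inclusion to skipping where both events together averaged at least 5 FPKM. Isoenzyme ratios were tested by exact permutation. The tests were tried on simulated data. Values per library are given for called members, for members listed in some libraries only and for the most abundant member of each step, and for called genes of other lists, at most 4 per direction and list. Members and lists were chosen with earlier results of these data known. Alternatives were other pseudocounts, filters, scalings, end events, exon edges, a replicate block, plain empirical Bayes, each library left out and, chosen after seeing the data, removal of length and GC trends.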

Additional observations from a re-analysis of the deposited data

How the results depend on the processing

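Pgk1 and G6pdx were called under every alternative but the replicate block, and Ldha under every one but the block and end events. Without any 1 library, 3 to 4 members were called lower and 0 to 1 higher, 0 to 1 and 2 to 5 of the other pathway genes, and 0 to 1 splicing ratios, while calls over all 9198 genes dropped from 1289 to between 515 and 841. Members called higher were 0 under trimmed means of log ratios, median ratios, plain empirical Bayes and removal of length and GC trends. Other pathway genes called lower were 1 with end events and 4 after that removal. Scaling moved the balance of all calls, from 773 higher and 516 lower as deposited to 606 and 692 by trimmed means, 616 and 666 by median ratios and 641 and 721 after trend removal. The cause of these shifts was not tested.

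The titles number the replicates alike in both groups, but the deviations of same-numbered libraries correlated at 0.019, -0.024 and -0.022, so no shared effect was visible. Such correlations cannot show whether same-numbered libraries were prepared together. With the replicate block, 0 members were called lower and 0 higher, 0 and 2 other pathway genes, and 0 splicing ratios, with 245 calls over all genes; fewer residual degrees of freedom remain.

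Uncalled changes whose sign turned were Pfkp (-0.354 with end events, -0.0032 to 0.478 without 1 library), Pfkfb2 (-0.0694 after trend removal, -0.0156 by median ratios, -0.0208 by trimmed means, -0.125 to 0.15 without 1 library), Eno3 (-0.0622 by exon edge, -0.163 with end events) and Pdk1 (-0.043, -0.0054 and -0.0154 under those scalings, -0.0375 to 0.159 without 1 library). Rpe turned to -0.0387 with end events. Leaving out 1 library moved Pfkm between -0.469 and 0.24, Pgd between -0.426 and 0.716, Aldoc between -0.0819 and 0.0217, Slc16a1 between -0.0529 and 0.008 and Taldo1 between -0.278 and 0.127. The Slc2a1 to Slc2a3 ratio difference turned to -0.0588 with end events and -0.0617 by exon edge and ran from -0.0051 to 0.317 without 1 library, and Pfkp to Pfkl turned to -0.666 with end events. With 3 libraries a group and unknown depth, a missing call does not show that levels were alike.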
